A study of Homo sapiens with 2 samples.

Results

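The spliceosome is the machine of small nuclear RNAs and proteins that removes introns from pre-mRNA. SNRP genes encode Sm and other proteins of the small nuclear ribonucleoproteins (snRNPs), SF3A and SF3B genes encode subunits of the U2 snRNP that hold the branch site, PRPF genes encode mainly factors of the U4/U6.U5 tri-snRNP and of spliceosome activation, and LSM genes encode Sm-like proteins that bind U6 RNA or act in mRNA decay. SRSF proteins, which carry arginine- and serine-rich domains, mostly favour the use of nearby exons, and HNRNP proteins bind nascent transcripts and often repress exons. Many HNRNP proteins carry methylated arginines and are bound or modified by ADP-ribose chains, so these families are known as protein targets of the enzyme classes studied here. The peaks described below concern the promoters of their genes, not the proteins.

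The genes described here were all protein-coding RefSeq genes of GRCh38 whose symbol begins with SNRP, SF3A, SF3B, SRSF, HNRNP, PRPF or LSM followed by a letter or digit. The rule used the symbol alone and found 86 genes of 19714 protein-coding genes with a known strand: 26 HNRNP, 15 LSM, 12 SNRP, 12 SRSF, 12 PRPF, 6 SF3B and 3 SF3A genes. LSMEM1 and LSMEM2 match the letters LSM but are named as membrane proteins, and LSM10 and LSM11 belong to the U7 snRNP that processes histone mRNA, so the letters do not select splicing factors alone. SNRNP70, U2AF2 and other splicing genes with other symbols fall outside the rule and are described last.

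The data came from untreated MDA-MB-231 cells, an established line of human breast cancer without hormone receptors or HER2 amplification, profiled with 1 library for an antibody against PRMT6, an arginine methyltransferase, and 1 library for an antibody against PARP1, which attaches ADP-ribose to proteins. The study used them to look for promoters that both proteins bind. Each library was deposited as a list of peaks, the stretches of the genome with more fragments than background, with 9080 peaks for PRMT6 and 11651 for PARP1. Each peak has a score, the −log10 of the p-value of the authors' peak caller, and rank 1 is the best score in a list, with tied peaks sharing a rank. Read depth and a control library were not part of the lists, and with 1 library per antibody there is no replicate check and no test between groups. Each share has a 95% Clopper-Pearson interval, an exact binomial interval for counting error alone. A promoter reaches 3 kb upstream and 3 kb downstream from the 5′ end of the gene record, and any base of a peak inside it counts.

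Promoter sequence is shown first for the members on which the description turns. These are the 6 members with the best mean rank over both lists, PRPF8 as the only PRPF gene with peaks in both lists, and 3 members of the same families without a promoter peak in either list. Each line holds the 250 bases before a RefSeq start site, 5′ to 3′ on the strand of the gene, in GRCh38.p14. Capitals mark matches on either strand to the 9 motifs listed further below (CCAAT, ETS, GC box, E-box, TATA, YY1, NRF1 and CRE letters).
HNRNPL (chr19:38849987-38850236, minus strand): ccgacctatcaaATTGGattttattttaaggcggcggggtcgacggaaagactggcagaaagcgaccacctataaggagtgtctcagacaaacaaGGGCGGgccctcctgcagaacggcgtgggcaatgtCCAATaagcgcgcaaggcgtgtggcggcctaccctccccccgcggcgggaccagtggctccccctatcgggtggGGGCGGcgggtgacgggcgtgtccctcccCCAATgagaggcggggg
HNRNPUL1 (chr19:41264122-41264371, plus strand): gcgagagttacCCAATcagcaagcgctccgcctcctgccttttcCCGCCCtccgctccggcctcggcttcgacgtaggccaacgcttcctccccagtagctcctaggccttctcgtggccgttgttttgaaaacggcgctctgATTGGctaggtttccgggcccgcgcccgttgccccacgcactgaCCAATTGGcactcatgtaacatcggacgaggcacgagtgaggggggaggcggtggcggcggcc
HNRNPD (chr4:82373992-82374241, minus strand): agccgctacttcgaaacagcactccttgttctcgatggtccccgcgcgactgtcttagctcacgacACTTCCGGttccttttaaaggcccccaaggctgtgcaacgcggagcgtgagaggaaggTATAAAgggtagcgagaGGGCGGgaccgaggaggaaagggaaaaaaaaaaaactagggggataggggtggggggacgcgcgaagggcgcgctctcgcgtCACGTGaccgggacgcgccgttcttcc
HNRNPC (chr14:21269443-21269692, minus strand): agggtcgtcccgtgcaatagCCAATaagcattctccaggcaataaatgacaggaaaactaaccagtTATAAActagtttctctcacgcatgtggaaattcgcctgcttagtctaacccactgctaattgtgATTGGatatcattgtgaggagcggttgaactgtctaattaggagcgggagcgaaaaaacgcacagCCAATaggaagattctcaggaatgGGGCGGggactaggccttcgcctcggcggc
HNRNPR (chr1:23344285-23344534, minus strand): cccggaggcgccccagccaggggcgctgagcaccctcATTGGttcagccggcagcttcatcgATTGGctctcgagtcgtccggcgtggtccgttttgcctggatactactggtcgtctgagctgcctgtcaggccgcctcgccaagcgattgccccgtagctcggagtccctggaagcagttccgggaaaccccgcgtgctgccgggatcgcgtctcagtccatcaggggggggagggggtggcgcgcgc
SNRPD2 (chr19:45692317-45692566, minus strand): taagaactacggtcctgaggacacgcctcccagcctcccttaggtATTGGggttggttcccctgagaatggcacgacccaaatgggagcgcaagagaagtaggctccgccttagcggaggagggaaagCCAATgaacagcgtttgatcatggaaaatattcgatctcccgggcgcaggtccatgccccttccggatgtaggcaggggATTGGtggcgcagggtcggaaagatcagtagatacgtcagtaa
PRPF8 (chr17:1684868-1685117, minus strand): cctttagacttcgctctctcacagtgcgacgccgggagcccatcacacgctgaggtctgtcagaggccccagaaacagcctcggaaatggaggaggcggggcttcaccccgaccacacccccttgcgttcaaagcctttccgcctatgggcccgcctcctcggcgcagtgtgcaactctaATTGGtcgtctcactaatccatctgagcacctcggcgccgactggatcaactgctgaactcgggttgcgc

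In HNRNPL and HNRNPUL1 the start used is an internal one, 2361 and 1815 bp downstream of the 5′ end of the record, since the peaks lie there. All 250 bases of the HNRNPL, HNRNPD and HNRNPC windows were covered by peaks of both lists. In HNRNPR all 250 bases were covered by the PRMT6 peak and 162 by the PARP1 peak, and in SNRPD2 the numbers were 250 and 212. The windows of the members without a promoter peak had no covered base.
HNRNPCL1 (chr1:12848721-12848970, minus strand): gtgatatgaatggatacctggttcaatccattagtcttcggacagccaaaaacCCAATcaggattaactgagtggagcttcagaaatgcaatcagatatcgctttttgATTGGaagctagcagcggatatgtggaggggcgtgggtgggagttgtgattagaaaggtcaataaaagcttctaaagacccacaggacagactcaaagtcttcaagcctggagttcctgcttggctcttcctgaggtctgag
SNRPF (chr12:95858702-95858951, plus strand): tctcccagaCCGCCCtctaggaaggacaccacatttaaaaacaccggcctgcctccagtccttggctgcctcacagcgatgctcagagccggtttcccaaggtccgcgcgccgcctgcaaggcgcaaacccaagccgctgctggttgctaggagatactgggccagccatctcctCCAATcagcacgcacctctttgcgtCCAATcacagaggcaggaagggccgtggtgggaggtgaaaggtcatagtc
PRPF19 (chr11:60906586-60906835, minus strand): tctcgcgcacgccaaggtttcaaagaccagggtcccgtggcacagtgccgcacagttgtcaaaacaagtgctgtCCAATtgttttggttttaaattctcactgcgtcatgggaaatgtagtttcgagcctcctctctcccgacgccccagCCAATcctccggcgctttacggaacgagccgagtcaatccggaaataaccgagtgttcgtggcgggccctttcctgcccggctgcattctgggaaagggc

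The 3 members without a peak were picked as examples and not by a rule. Their windows all held CCAAT letters, while the HNRNPD window held none. In the 300-base windows described further below, CCAAT occurred in 11 of 28 members without a peak and 18 of 30 with peaks in both lists.

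Of the 86 members, 51 had a promoter peak in at least 1 list. A PRMT6 promoter peak was found at 36 of the 86 members (41.9%, 31.3% to 53.0%), against 18.3% of all protein-coding genes. A PARP1 promoter peak was found at 47 members (54.7%, 43.5% to 65.4%), against 22.5% of all genes. Both lists had a promoter peak at 32 members (37.2%, 27.0% to 48.3%), against 13.4% of all genes. Of these 32, 31 had a PRMT6 promoter peak that shared at least 1 bp with a PARP1 peak, which is 36.0% of the members (26% to 47.1%) against 12.9% of all genes. PARP1 peaks alone occurred at 15 members (17.4%, 10.1% to 27.1%, background 9.1%), and PRMT6 peaks alone at 4 (4.65%, 1.28% to 11.5%, background 4.88%). The share with PRMT6 alone was thus near that of all genes. The remaining 35 members (40.7%) had no promoter peak in either list, against 72.7% of all genes.

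**Figure D1:**
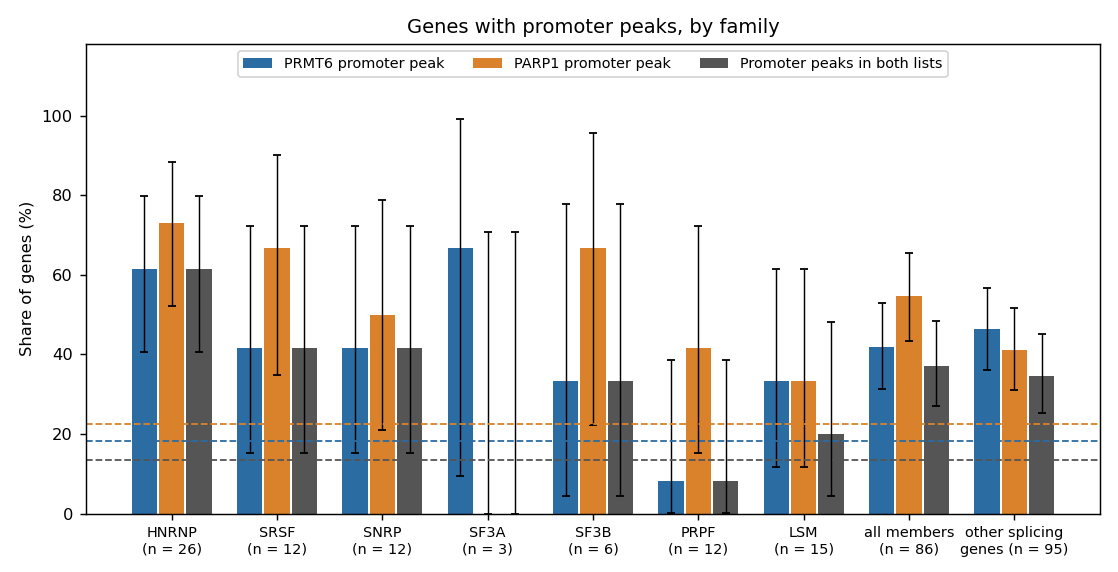
Share of genes (%) with a PRMT6 promoter peak (blue), a PARP1 promoter peak (orange) and promoter peaks in both lists (grey), by gene family; error bars are 95% exact binomial intervals and dashed lines give the shares of all 19714 protein-coding genes in the same colours (18.3%, 22.5% and 13.4%). HNRNP genes had the highest share with peaks in both lists (61.5%), and the SF3A and PRPF genes had the lowest (0 of 3 and 1 of 12).

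The families differed in how many of their genes were listed. HNRNP genes had promoter peaks in both lists at 16 of 26 (61.5%, 40.6% to 79.8%), SRSF genes at 5 of 12 (41.7%, 15.2% to 72.3%), SNRP genes at 5 of 12, SF3B genes at 2 of 6, LSM genes at 3 of 15 (20%, 4.33% to 48.1%), PRPF genes at 1 of 12 (8.33%, 0.211% to 38.5%) and SF3A genes at 0 of 3, where the interval allows up to 70.8%. The interval of the HNRNP share lay just above that of the PRPF share and overlapped those of the other families. The gap to the PRPF interval was lost under some settings, since HNRNP was at 53.8% (33.4% to 73.4%) with a window of 1 kb on either side or of 2 kb upstream to 500 bp downstream, with PRPF still reaching 38.5%. It was lost as well in the higher-scoring 50% of each list (HNRNP 57.7%, 36.9% to 76.6%) and without genes that have a close coding neighbour (HNRNP 55%, 31.5% to 76.9%, and PRPF 14.3%, 0.361% to 57.9%). The difference between families was not tested. Of all protein-coding genes, 13.4% had promoter peaks in both lists. The intervals of the SF3B, LSM, PRPF and SF3A shares included that value, while those of HNRNP, SRSF and SNRP lay above it. Counting any PARP1 promoter peak, with or without a PRMT6 peak, the order was HNRNP (19 of 26), SRSF (8 of 12) and SF3B (4 of 6), SNRP (6 of 12), PRPF (5 of 12), LSM (5 of 15) and SF3A (0 of 3). For PRMT6, the PRPF genes had 1 of 12 (8.33%, 0.211% to 38.5%), the SF3A genes 2 of 3 and the LSM genes 5 of 15. Of all protein-coding genes, 22.5% had a PARP1 promoter peak and 18.3% a PRMT6 promoter peak. Only the HNRNP and SRSF intervals lay above the PARP1 share, and only the HNRNP interval above the PRMT6 share.

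In the HNRNP family the genes with promoter peaks in both lists were HNRNPA0, HNRNPA1, HNRNPA2B1, HNRNPA3, HNRNPAB, HNRNPC, HNRNPD, HNRNPDL, HNRNPF, HNRNPH3, HNRNPK, HNRNPL, HNRNPLL, HNRNPR, HNRNPUL1 and HNRNPUL2. In each of these a PRMT6 promoter peak overlapped a PARP1 peak. HNRNPH2, HNRNPM and HNRNPU were in the PARP1 list only. HNRNPU, a nuclear scaffold protein, had a PARP1 peak across its 5′ end (chromosome 1, 244864458 to 244864714, rank 5187, score 6.82) and another downstream (244862909 to 244863194, rank 11193). HNRNPA1L2, HNRNPA1L3, HNRNPCL1, HNRNPCL2, HNRNPCL3, HNRNPCL4 and HNRNPH1 had none. HNRNPA1L3 and the HNRNPCL genes are short copies of HNRNPA1 and HNRNPC, with records under 3 kb. Among the 21 HNRNP genes with longer records, promoters of 16 (76.2%, 52.8% to 91.8%) were in both lists and those of 19 (90.5%, 69.6% to 98.8%) in the PARP1 list. The genes left out all lacked a promoter peak, so both shares rose by construction. Over all protein-coding genes of any record length the shares were 13.4% and 22.5%. Reads of near-identical copies are hard to place, and the part of this in the absence of peaks at the HNRNPCL genes was not tested.

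HNRNPL, a regulator of exons with CA-rich sequence, held the best mean rank of all members. Its PRMT6 peak (chromosome 19, 38849868 to 38850838) ranked 119 with a score of 20.7, and its PARP1 peak (38849971 to 38850738) ranked 89 with a score of 26.3. Both peaks began over 1.5 kb downstream of the 5′ end of the record (1509 and 1609 bp) and both contained the internal RefSeq start at 38849986. HNRNPUL1, a relative of HNRNPU, came next. Its PRMT6 peak (chromosome 19, 41263688 to 41264414, rank 105, score 22.0) contained the internal start at 41264372, and its PARP1 peak (41263707 to 41264352, rank 256, score 20.1) ended 20 bp before it. At these best-ranked members the peaks thus lay at an internal start and not at the 5′ end that the rule uses.

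HNRNPD, also known as AUF1, binds AU-rich mRNA elements. Its PRMT6 peak (chromosome 4, 82373902 to 82374509) ranked 260 with a score of 16.6 and its PARP1 peak (82373990 to 82374500) ranked 373 with a score of 17.9. HNRNPC, which binds uridine tracts in introns, had a PRMT6 peak (chromosome 14, 21269314 to 21270003) at rank 281 with a score of 16.2 and a PARP1 peak (21269351 to 21269857) at rank 484 with a score of 16.5. In both genes the peaks of both lists spanned the 5′ end. HNRNPR had a PRMT6 peak across the 5′ end (chromosome 1, 23344214 to 23344778, rank 225, score 17.3) and a PARP1 peak that began 89 bp upstream of it (23344373 to 23344713, rank 598, score 15.7).

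HNRNPA1, among the most abundant nuclear RNA-binding proteins, was the only member with 2 promoter peaks in each list. One pair lay at its own 5′ end, with the PRMT6 peak from 54280499 to 54280790 (chromosome 12, rank 2591) and the PARP1 peak from 54280423 to 54280751 (rank 1737). The better-ranked pair lay further upstream, with ranks of 1418 (54279547 to 54280058) and 1685 (54279578 to 54279854), and began 668 and 872 bp from the 5′ end. The 5′ end of CBX5, a heterochromatin protein gene on the opposite strand, is 604 bp upstream of that of HNRNPA1, between both pairs. HNRNPA2B1 shares its promoter region with another heterochromatin protein gene, CBX3, whose 5′ end is 697 bp upstream. There a wide peak of each list (PRMT6 26200662 to 26201264 on chromosome 7, rank 620, and PARP1 26200707 to 26201376, rank 2601) spanned the 5′ end of HNRNPA2B1.

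Among SRSF genes, SRSF2, SRSF3, SRSF4, SRSF5 and SRSF10 had promoter peaks in both lists, SRSF1, SRSF6 and SRSF7 had a PARP1 peak only, and SRSF8, SRSF9, SRSF11 and SRSF12 had none. SRSF2, which is mutated in blood cancers, had the best-ranked PRMT6 peak of the family (chromosome 17, 76737237 to 76737987, rank 687, score 12). The PARP1 list held 2 peaks that overlapped it, at rank 2894 (76737327 to 76737608) and rank 9900 (76737692 to 76738015). SRSF5 had the best-ranked PARP1 peak (chromosome 14, 69766879 to 69767154, rank 1355, score 11.7) and a PRMT6 peak at rank 1926. The peaks of the SRSF genes with PARP1 alone ranked low, at 7034 (SRSF7), 7686 (SRSF1) and 8153 (SRSF6) of 11651. With the higher-scoring 50% of each list, 4 of 12 SRSF genes (33.3%) kept a PARP1 promoter peak, against 14.0% of all protein-coding genes.

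Among SNRP genes, SNRPA, SNRPB, SNRPD2, SNRPD3 and SNRPE had promoter peaks in both lists and SNRPG a PARP1 peak only. SNRPA1, SNRPB2, SNRPC, SNRPD1, SNRPF and SNRPN had none. The Sm ring is built from the proteins of SNRPB, SNRPD1, SNRPD2, SNRPD3, SNRPE, SNRPF and SNRPG, so 4 of its 7 genes had promoter peaks in both lists. SNRPD2 held the best PRMT6 rank of all members (chromosome 19, 45692075 to 45692771, rank 53, score 26.7), and its PARP1 peak (45692355 to 45692787) ranked 857 with a score of 13.8. SNRPA, which encodes a U1 snRNP protein, had a PRMT6 peak of score 12.5 at rank 604 (chromosome 19, 40750443 to 40751228) and a PARP1 peak of score 10.4 at rank 1905 (40750476 to 40750898). The opposite-strand 5′ end of ACTMAP is 726 bp upstream of that of SNRPA, inside the PRMT6 peak and at the edge of the PARP1 peak. That PARP1 peak stopped 305 bp before the 5′ end of SNRPA. SNRPD3 had the lowest PARP1 rank among members with both, 9402, beside a PRMT6 rank of 2348. At SNRPN, an imprinted gene with a record of 155087 bp, the nearest peak of either list was over 1 Mb from the 5′ end and from each of its 4 listed internal starts.

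Some SF3A and SF3B genes were in 1 list only. SF3A1 and SF3A2 had a PRMT6 promoter peak only, at ranks of 2418 (chromosome 22, 30356425 to 30356713) and 2113 (chromosome 19, 2236231 to 2236762). The nearest PARP1 peaks were 51883 and 15201 bp away. Neither PRMT6 peak reached the 5′ end of its SF3A gene (181 and 62 bp away). Each contained the 5′ end of an opposite-strand coding gene, CCDC157 (270 bp downstream of that of SF3A1) and PLEKHJ1 (495 bp upstream of that of SF3A2). These peaks cannot be assigned to either gene. SF3A3 had no promoter peak. SF3B1, the most often mutated splicing factor gene in cancer, and SF3B5 had a PARP1 peak only, at ranks of 4563 (chromosome 2, 197435176 to 197435384) and 3641 (chromosome 6, 144095526 to 144095867). SF3B2 and SF3B6 had both. At SF3B6, whose protein contacts the branch site adenosine, the peaks began at the same base (chromosome 2, 24076168 to 24076705 at rank 1038 for PRMT6 and 24076168 to 24076669 at rank 989 for PARP1), and at SF3B2 the ranks were 1902 (chromosome 11, 66051974 to 66052372) and 833 (66051968 to 66052392). SF3B3 and SF3B4 had no promoter peak.

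PRPF8, the scaffold at the heart of the spliceosome, was alone among PRPF genes in having both. The PRMT6 peak there (chromosome 17, 1684717 to 1685100) ranked 1786 with a score of 8.15 and its PARP1 peak (1684781 to 1685142) ranked 921 with a score of 13.4. PRPF6, PRPF31 and PRPF38B were among the PRPF genes with a PARP1 peak only. PRPF31, which is mutated in retinitis pigmentosa, had a PARP1 peak at rank 4307 (chromosome 19, 54115533 to 54115803). PRPF3, PRPF4, PRPF18, PRPF19, PRPF38A, PRPF39 and PRPF40B had no promoter peak.

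LSM3, LSM4 and LSM14B had promoter peaks in both lists, LSM2 and LSM6 a PRMT6 peak only, LSM5 and LSM14A a PARP1 peak only, and LSM1, LSM7, LSM8, LSM10, LSM11, LSM12, LSMEM1 and LSMEM2 none. LSM2 to LSM8 form the ring on U6 RNA, and LSM3 and LSM4 were the members of that ring with both. LSM3 was the only member with promoter peaks in both lists that did not overlap. Its PRMT6 peak (chromosome 3, 14178112 to 14178493, rank 6841, score 4.48) ended 324 bp upstream of the 5′ end, on the side of the DNA repair gene XPC, whose opposite-strand 5′ end is 216 bp upstream. Its PARP1 peak (14178558 to 14178908, rank 2509, score 9.28) spanned the 5′ ends of both LSM3 and XPC, while the PRMT6 peak contained neither. LSM2 had the best-ranked PRMT6 peak without a PARP1 peak in its promoter (chromosome 6, 31806759 to 31807059, rank 1093, score 10.1), and LSM6 the lowest (chromosome 4, 146175630 to 146175918, rank 8171).

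**Figure D2:**
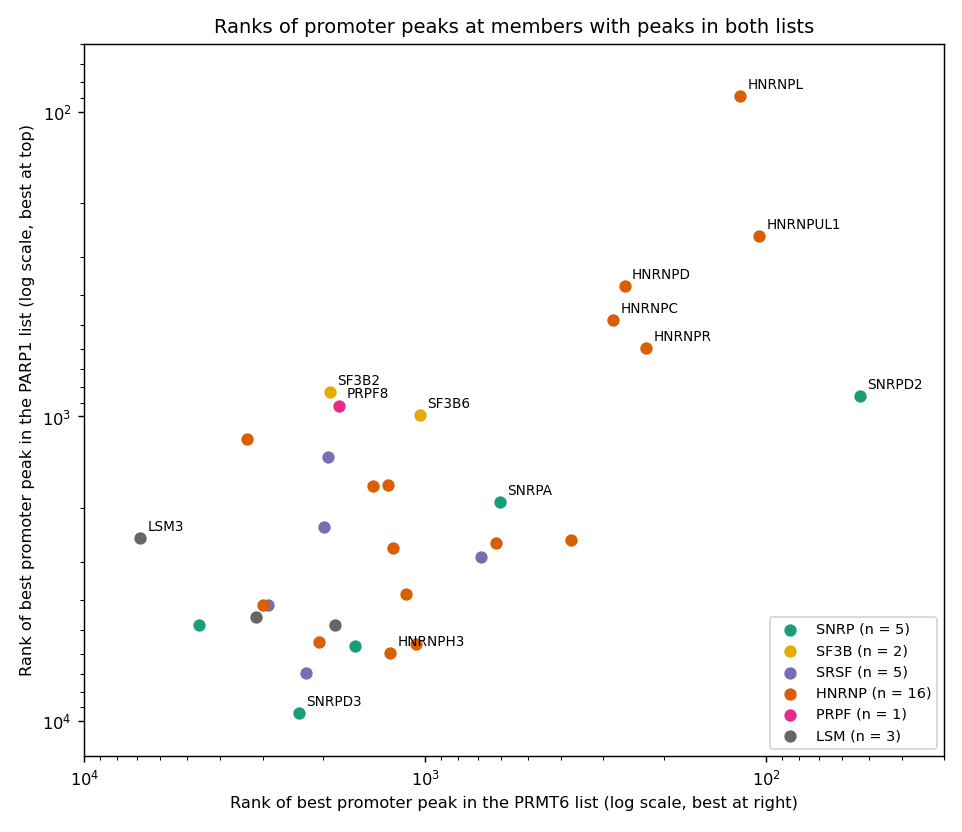
Rank of the best promoter peak in the PRMT6 list (horizontal, log scale) and in the PARP1 list (vertical, log scale) for the 32 members with promoter peaks in both lists, 1 point per gene, coloured by family, both axes reversed, with the best ranks at the upper right. HNRNPL, HNRNPUL1, HNRNPD, HNRNPC, HNRNPR and SNRPD2 stand toward the upper right, while LSM3 lies farthest to the left and SNRPD3 lowest.

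The members' promoter peaks ranked higher in the PRMT6 list than those of protein-coding genes in general. The best PRMT6 promoter peak of the 36 members stood at a median of the top 16.6% of the list, against 27.8% for 3598 genes, and 33 of 36 (91.7%, 77.5% to 98.2%) lay in the higher-scoring 50% of the list, against 73.6%. For PARP1 the median of 47 members was the top 35.7%, against 37.8% for 4428 genes, and 34 of 47 (72.3%, 57.4% to 84.4%) lay in the higher-scoring 50%, against 62.2%. The interval of the PARP1 share included the value of all genes. The 15 members with a PARP1 peak alone had a median at the top 66.0%, while the PARP1 peaks of the 32 members with both had a median at the top 21.7%. All protein-coding genes showed the same order, at 57.5% and 25.3%. HNRNP genes had the highest family median in the PRMT6 list among families with at least 5 such genes (top 12.1%, 16 genes), followed by SNRP (17.7%, 5 genes), SRSF (21.9%, 5 genes) and LSM (34.6%, 5 genes).

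Over the 32 members with both, ranks in the PRMT6 and PARP1 lists rose together, with a Spearman rho of 0.54, as they did over all 2635 such genes (0.56). The points share the gene, the cells and the promoter composition, so rho is a description only. The PARP1 peak stood higher in its own list than the PRMT6 peak did in its list at 10 of 32 members (31.2%, 16.1% to 50%) and at 42.9% of all such genes.

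Most peaks sat at the 5′ end. The best PRMT6 promoter peak spanned it at 26 of 36 members (72.2%, 54.8% to 85.8%), against 55.1% of all genes with such a peak, and lay within 500 bp of it at 33 (91.7%, against 82.7%). The best PARP1 promoter peak spanned it at 25 of 47 members (53.2%, 38.1% to 67.9%), against 44.7%, and lay upstream at 17 (36.2%, against 34.4%) and downstream at 5 (10.6%, against 20.8%). At 16 of the 32 members with both, the best peaks of both lists spanned the 5′ end, against 40.0% of all such genes. The centres of the best peaks had a median position 114 bp upstream of the 5′ end for PRMT6 and 128 bp upstream for PARP1, and all genes gave 108 and 105 bp. PRMT6 peaks had a median width of 394 bp and PARP1 peaks one of 282 bp. Peaks of exactly the smallest width of their list (288 and 200 bp) made up 5 of 36 (13.9%) and 8 of 47 (17.0%), against 27.7% and 18.0% over all genes.

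**Figure D3:**
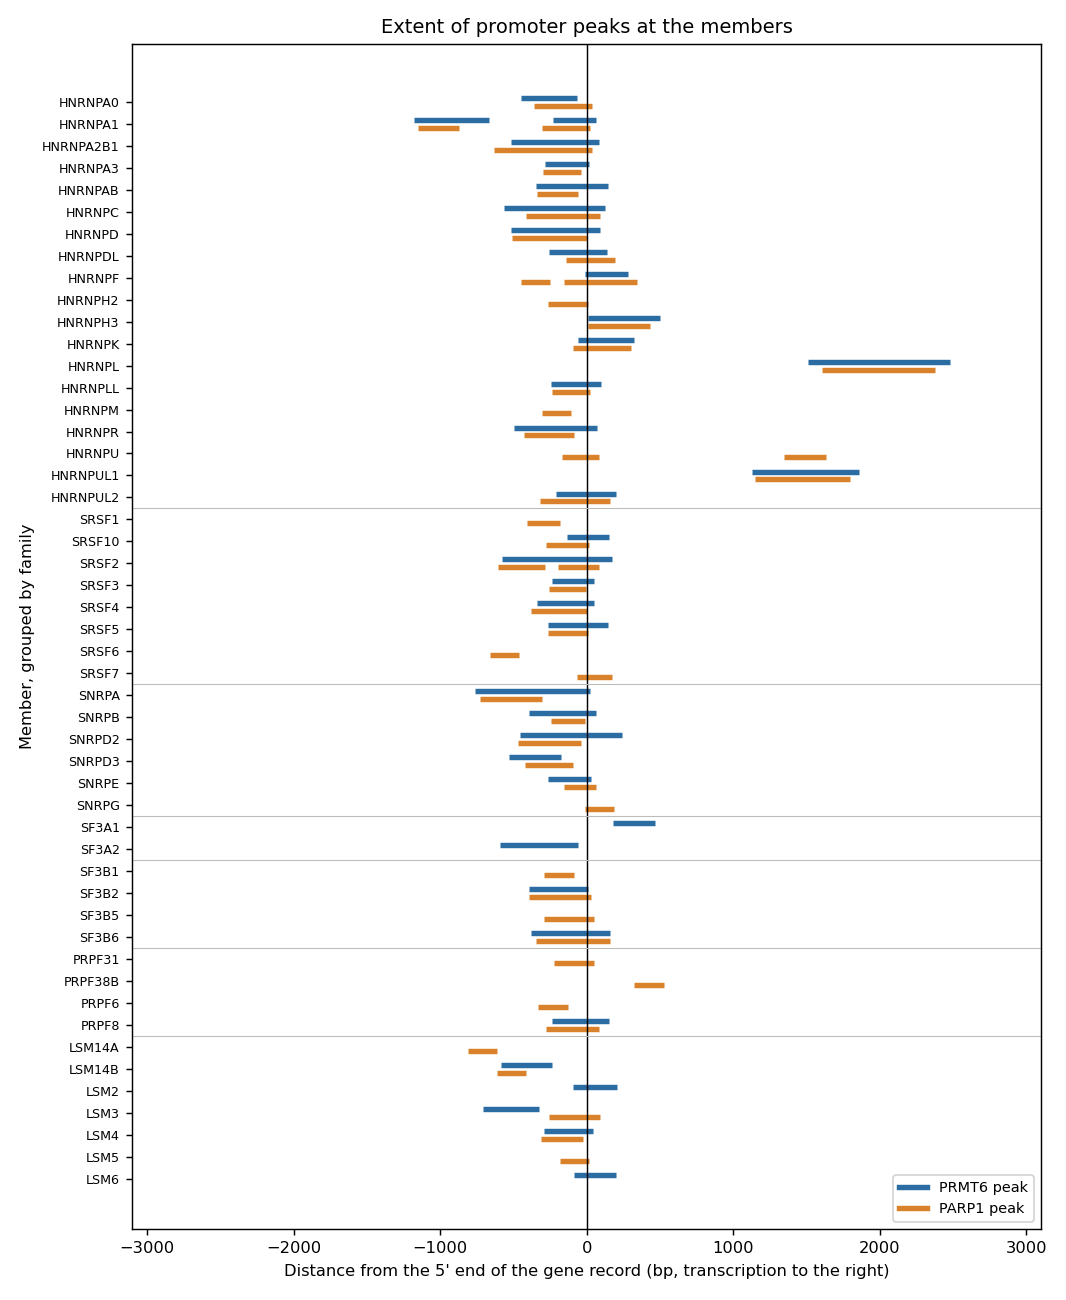
Extent of every promoter peak at members with a promoter peak in at least 1 list (1 of the 51 is not shown), as bp from the 5′ end of the gene record with transcription to the right, PRMT6 in blue and PARP1 in orange, grouped by family. Most bars cross or lie just upstream of 0, while those of HNRNPL and HNRNPUL1 and the second bar of HNRNPU lie over 1 kb downstream, and SF3A1 and SF3A2 show a PRMT6 bar only.

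Other listed starts changed few classes. The RefSeq promoter table held 74 of the 86 members, and 18 of them had more than 1 start. The genes named in this paragraph were chosen after their values were seen. With the window around any listed start, added once the values were known, 37 members had a PRMT6 peak (43.0%, background 19.6%), 49 a PARP1 peak (57.0%, background 24.1%) and 33 both (38.4%, background 14.4%). The change came from HNRNPH1 and SRSF11. HNRNPH1, which binds G-rich exonic sequence, has 3 listed starts between 10184 and 11383 bp downstream of the 5′ end of its record. The PARP1 peak from 179624430 to 179624754 (chromosome 5, rank 8395) contained the start at 179624600, and the PARP1 peak from 179623736 to 179624054 (rank 5948) and the PRMT6 peak from 179623792 to 179624080 (rank 8013) lay 65 and 121 bp from the start at 179623671. At SRSF11 a PARP1 peak (chromosome 1, 70221328 to 70221528, rank 4970) contained the internal start at 70221380. HNRNPF had a PARP1 peak at its internal start too (chromosome 10, 43397272 to 43397472, rank 6357), beside the peaks at its 5′ end.

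A few members had peaks just outside the window. LSM10 had its nearest PRMT6 peak 3070 bp and its nearest PARP1 peak 3257 bp upstream of the 5′ end (chromosome 1, ranks 2746 and 4677). A PARP1 peak lay 3155 bp upstream of HNRNPCL1 (rank 3109), and a PRMT6 peak lay 3516 bp upstream of LSM12 (rank 3890). SF3B4 had a PARP1 peak 5690 bp upstream, LSM7 had one 8548 bp upstream, and LSMEM2 had both lists' nearest peaks 8709 and 8690 bp upstream. For SRSF6, which had a PARP1 promoter peak, the nearest PRMT6 peak was 8599 bp downstream.

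Many members share a promoter region with another gene. At 25 of the 86, the 5′ end of a coding gene on the opposite strand lay within 1 kb, against 2692 of all 19714 protein-coding genes. At these 25 members a peak cannot be assigned to either gene. Of the 25, 13 had a PRMT6 peak (52.0%, 31.3% to 72.2%), 16 a PARP1 peak (64.0%, 42.5% to 82.0%) and 11 both (44%, 24.4% to 65.1%), against 35.1%, 44.4% and 28.0% of all 2692 coding genes with such a neighbour. Of the other 61 members, 23 had a PRMT6 peak (37.7%, 25.6% to 51.0%), 31 a PARP1 peak (50.8%, 37.7% to 63.9%) and 21 both (34.4%, 22.7% to 47.7%), against 15.6%, 19.0% and 11.1% of all other coding genes. The members with a neighbour and peaks in both lists include HNRNPDL (with ENOPH1, 128 bp upstream), HNRNPUL2 (TTC9C, 592 bp upstream), SNRPD2 (QPCTL, 350 bp upstream) and SF3B6 (FAM228B, 507 bp upstream). LSM7 and SPPL2B (98 bp apart), SRSF9 and DYNLL1 (94 bp apart) and PRPF4 and CDC26 (86 bp apart) share close promoters with no peak in either list.

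The members' promoters were rich in CpG. The window counted was the 300 bases from 250 before to 50 after the listed start nearest to the 5′ end of the record. At HNRNPL and HNRNPUL1 it lies at that 5′ end, unlike the windows printed above, and no peak reached it. At SNRPN, LSMEM2 and PRPF40B, all without a promoter peak, the nearest listed start lay 32934, 1180 and 915 bp from that 5′ end. The counted SNRPN window is thus outside the promoter that was searched for peaks. In the counted windows the observed over expected CpG number had a median of 0.924 over 74 members, against 0.761 over 15840 protein-coding genes. It was 0.954 for the 30 members with peaks in both lists and 0.814 for the 28 with none. CpG content moves with the peaks in all genes too (0.849 and 0.69), so shares were also counted among promoters with a value of at least 0.6, a limit added once the values were known. There 32 of 64 members (50%, 37.2% to 62.8%) had a PRMT6 peak, 42 (65.6%, 52.7% to 77.1%) a PARP1 peak and 29 (45.3%, 32.8% to 58.3%) both, against 25.9%, 31.4% and 19.3% of 10385 genes. The members' intervals lay above these values.

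The letters CCGGAAGT, a long form of the ETS factor motif, occurred on either strand in 13 of the 74 promoters (17.6%, 9.7% to 28.2%), against 6.14% of 15840. They occurred in 7 of the 30 members with peaks in both lists (23.3%, 9.93% to 42.3%) and in 3 of the 28 with none (10.7%, 2.27% to 28.2%), against 8.47% of all genes with peaks in both lists and 4.76% of all genes with none. The shorter GGAAGT, which the long form contains, occurred in 16 of 30 (53.3%, 34.3% to 71.7%) and 7 of 28 (25%, 10.7% to 44.9%), against 27.2% and 23.2%. The intervals of members with and without peaks overlapped for both forms. By family, the long form occurred in all 3 SF3A promoters, 3 of 5 SF3B, 3 of 11 SNRP, 2 of 11 SRSF, 1 of 9 PRPF, 1 of 23 HNRNP and 0 of 12 LSM promoters. Differences between families were not tested. CCAAT, the box bound by NF-Y, occurred in 18 of 30 (60%) and 11 of 28 (39.3%), against 49.7% and 33.3% of all genes with and without peaks. HNRNPUL1 was counted as lacking CCAAT, since its counted window is at the 5′ end of the record and not the window printed above. GGGCGG, the GC box bound by SP factors, occurred in 21 of 30 (70.0%) and 12 of 28 (42.9%), against 75.9% and 52.3%.

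Other motifs were rarer. The E-box CACGTG occurred in 9 of the 74 promoters (12.2%, against 8.83% of all genes), AAGATGGC (YY1) in 5 (6.76%, against 3.86%), TATAAA in 5 (6.76%, against 9.75%), the NRF1 motif in 1 (1.35%, against 1.77%) and TGACGTCA (the cyclic AMP response element) in 0, where the interval allows up to 4.86% and all genes gave 2.56%. A match describes letters in this window and not a bound factor.

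**Figure D4:**
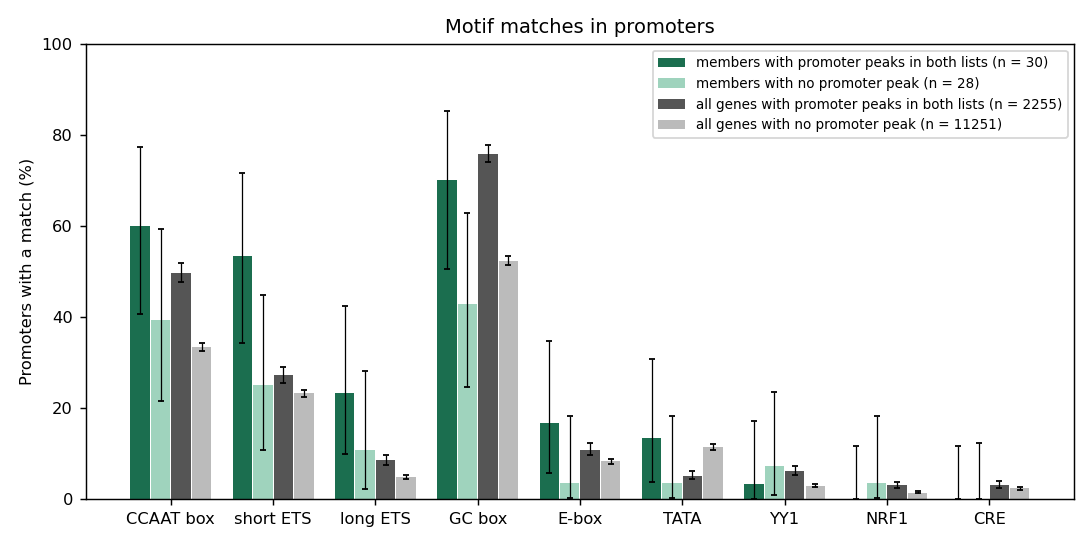
Share of promoters (%) with a match on either strand to each motif, in 300 bases around the start, for members with promoter peaks in both lists (dark green, 30), members with none (light green, 28), all genes with peaks in both lists (dark grey, 2255) and all genes with none (light grey, 11251); error bars are 95% exact binomial intervals. The short ETS letters occurred in 53.3% of the members with peaks in both lists against 27.2% of all such genes, while the GC box was at 70.0% and 75.9%.

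Peaks inside member genes beyond the promoter were also listed, and the share of all protein-coding genes with such peaks was not counted. Apart from those at HNRNPH1, SRSF11 and HNRNPF, those named here were PARP1 peaks in PRPF40B (rank 7383), SRSF1 (10178) and SF3B3 (10721), and PRMT6 peaks in PRPF8 (6633), SNRPD3 (4835) and SRSF4 (4835). A split into exons and introns was not analysed here.

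Splicing genes with other symbols were counted in the same way. Of 95 such genes, listed from general knowledge of the spliceosome, 44 had a PRMT6 promoter peak (46.3%, 36.0% to 56.8%), 39 a PARP1 peak (41.1%, 31.1% to 51.6%) and 33 both (34.7%, 25.3% to 45.2%), against 18.3%, 22.5% and 13.4% of all protein-coding genes. Splicing regulators and SR-related proteins had both at 16 of 28 (57.1%, 37.2% to 75.5%), with the best ranks at RBM39 (84 for PRMT6 and 378 for PARP1), KHSRP (88 and 535), TRA2B (128 and 619), PTBP1 (135 and 949) and PNN (662 and 191). Factors of branch site and 3′ splice site recognition had both at 6 of 15 (40%, 16.3% to 67.7%). Among them was SF1, the branch point binding protein, with ranks of 25 and 246 (PRMT6 64778476 to 64779162 and PARP1 64778507 to 64779150 on chromosome 11), the best mean rank of the 95. Helicases of the catalytic steps and second-step factors had both at 5 of 9 (55.6%, 21.2% to 86.3%), among them DHX8 (ranks 1093 and 131).

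The remaining groups are read against the same 13.4% of all genes with peaks in both lists. Proteins of the complex around PRPF19 had both at 1 of 17 (5.88%, 0.149% to 28.7%, an interval that includes 13.4%), AQR. Of the 17, 12 (70.6%) had no promoter peak in either list, near the 72.7% of all protein-coding genes. The listed snRNP-associated proteins, of U1, U2, U5, the tri-snRNP and other particles, had both at 4 of 16 (25%, 7.27% to 52.4%, which also includes 13.4%). SNRNP70 (ranks 398 and 929) was among those with both, while SNRNP200 and EFTUD2, the partners of PRPF8, had no promoter peak. The kinases of SR proteins had both at 1 of 7 (14.3%, 0.361% to 57.9%), PRP4K, and CLK1, CLK2, CLK3, CLK4, SRPK1 and SRPK2 had none. The last group, DNAJC8, SMNDC1 and HTATSF1, had both at 0 of 3, where the interval allows up to 70.8%. Differences between these groups were not tested.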

How the data were processed

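The data are 1 PRMT6 and 1 PARP1 library from MDA-MB-231 cells, and groups came from the antibody in the labels. The study's methods describe CUT&Tag, while the labels mix this with ligation of immunoprecipitated DNA, so the library chemistry is uncertain. The submitters' processing notes name CASAVA 1.4, Bowtie 0.12.8, MACS, MACS2 and the build hg19, without roles. The deposited lists, called by the authors in each library separately, give positions and a −log10 p-value from peak calling, which is not comparable between libraries. Thresholds, duplicate handling and a control library are not given in the sources used here.

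The positions go against hg19. In the PRMT6 list 55 peaks and in the PARP1 list 61 ended beyond GRCh37 chromosome ends, and 30.1% and 29.4% of peaks lay within 1 kb of a 5′ end in GRCh38 records, against 4.04% and 3.94% in GRCh37 records. GRCh38 was therefore used, with RefSeq records and promoters of GRCh38.p14. Strand came from the RefSeq promoter table for 74 members and from GENCODE for 12, and 332 of all protein-coding genes without a strand were left out. Starts are printed as listed; whether they count from 0 or 1 is not given, which could shift a start by 1 bp.

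Peaks sharing 1 bp or more were called overlapping, using Python 3.11.15 with pandas 2.3.3, numpy 2.4.6 and scipy 1.17.1. Counts of overlaps equalled those of bedtools 2.31.1, and the scripts were tested on simulated data. The members, motifs and lists were chosen with earlier results of these data known. Positions and ranks are printed for the 10 members with the best mean rank over both lists. The same holds for the 5 best with a peak in 1 list only. Members with a nearest peak between 3 and 10 kb away and members with several or non-overlapping promoter peaks are named, some without positions or ranks. The best of the other splicing genes are named with their ranks. The values of 1 member are not reported here, and it is kept in the counts. Alternatives covered the window, the peak centre, the score, the list length, the width, the gene sets and the overlap rule.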

Additional observations from a re-analysis of the deposited data

How the results depend on the processing

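Of 48 alternatives for the shares over all members, 46 stayed within the 95% interval of the value given and 2 moved. With the higher-scoring 50% of each list, the share with a PARP1 promoter peak was 39.5% in place of 54.7% (14.0% of all genes). Among promoters with an observed over expected CpG number of at least 0.6 it was 65.6%, which leaves out members by construction. In all 48, the members' share was above that of all protein-coding genes, by a factor between 1.93 and 3.55. Of 336 alternatives for single families, 4 moved. PARP1 at SRSF genes went to 33.3% in the higher-scoring 50%, PARP1 at HNRNP genes to 90.5% without short records and to 94.7% in CpG-rich promoters, and PRMT6 at SF3A genes to 0 of 1 without genes that have a close neighbour. Without short records the HNRNP share rose by construction, since the genes left out all lacked a promoter peak. In the higher-scoring 50%, the PARP1 peaks of SRSF1, SRSF6, SRSF7 and SRSF10 (ranks 7686, 8153, 7034 and 6943 of 11651) fell below the cut. The settings with any listed start and with CpG-rich promoters were chosen after the data were seen. No paired analysis was possible because there is 1 library per antibody. Families of 3 to 26 genes leave wide intervals, and read depth is unknown.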
